A study of Macaca mulatta with 27 samples.

Results

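The genes described here are the translation factors and aminoacyl-tRNA synthetases of rhesus macaque embryonic stem cells. They were chosen by gene symbol in the platform annotation: initiation factors (EIF), elongation factors (EEF) and synthetases whose symbol ends in ARS, ARS1 or ARS2. The rule found 67 genes among 14133 with a single symbol, measured by 143 probe sets, and each gene was represented by its brightest probe set over the 27 arrays. EIF5A was included expressly because it ranges widely among lines, so its own range is a description and no support. By spelling the rule also takes in EIF1AD, which is named for its resemblance to an initiation factor, and 4 methyltransferases that modify elongation factors. The kinase EIF2AK3, EIF4ENIF1, which carries EIF4E into the nucleus, and EEF1E1, counted below with the multisynthetase complex, enter the same way. The glutamyl-prolyl and phenylalanyl synthetase subunits of the cytosol are spelled differently and lie outside it.

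RNA from 10 embryonic stem cell lines was hybridised to 27 Affymetrix rhesus arrays. All lines were derived from the inner cell mass of blastocysts, the labels give no treatment or genetic change, and all were established on mitomycin C-treated mouse embryonic fibroblasts with 12 ng/mL bFGF, 10 ng/mL activin A and 10 ng/mL human LIF. Lines 106, 206 and 306 are fraternal triplets from sire M106 and dam F244. Lines 2706, 2906, 3006 and 3106 are fraternal quadruplets from M106 and dam F88. M106 also sired line 2406 (dam F77) and line 3806 (dam F32), while line 906 has sire M36 and dam F183. The male lines are 106, 306, 906, 2706 and 3106, and the female lines are 206, 2406, 2906, 3006 and 3806. Line 2906 has 1 array, line 206 has 2 and the others have 3 each. Whether the arrays of 1 line stand for different cultures is not in the labels. The spread behind the p-values among lines is that between arrays and may be technical.

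Translation starts when EIF2 brings the initiator tRNA to the small ribosomal subunit, EIF3 and the cap-binding EIF4 factors load the mRNA, and EIF5 and EIF5B help the large subunit join at the start codon. The EEF1 complex then delivers each aminoacyl-tRNA, EEF2 moves the ribosome along, and EIF5A, which carries the modified lysine hypusine, helps ribosomes through difficult peptide bonds. Synthetases charge each tRNA with its amino acid, with separate genes for most mitochondrial enzymes. Stem cells are known for holding global translation low relative to their differentiated progeny, and phosphorylation of EIF2 by stress kinases such as EIF2AK3 lowers initiation while favouring ATF4, which induces several cytosolic synthetase genes.

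Values are log2(signal + 16), with the mean and SD over the arrays of a line. A probe set's level cannot be set against that of another gene, so levels are compared between lines only. Of the 67 genes, 58 were called present on all 27 arrays by the deposited detection calls. The others were EIF3B, EIF3K and EEF2KMT (26 arrays each), VARS1 (25), EEF1A2 (22), EIF4G1 (21), EIF4E (20), EIF5A (15) and WARS2 (12). All 67 passed the filter on dim probe sets.

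Some arrays stood apart before any comparison. The GAPDH 3' to 5' signal ratio, which rises as RNA degrades, had a median of 2.10 over the arrays and exceeded 3 on 6 of them: 106c (4.61), 2406d (3.18), 2406e (3.04), 2906d (13.3), 3006a (6.15) and 3006c (3.41). Array 2906d is the only array of its line. The highest median signals were those of 106c (159.8), 206c (149.0), 906c (137.5) and 306c (137.4, against a median of 114.7 over all arrays). Of the 5 pluripotency markers, 4 were called present on every array, among them POU5F1 and SOX2, and NANOG was present on 26. The trophoblast markers CDX2, KRT7 and GATA2, the neural NEUROG2 and the mesoderm and blood markers TBXT and PTPRC were called present on 0 arrays. Others of these lists were called present. Of the trophoblast list these were GATA3 and KRT8 (26 arrays each), TFAP2A (16), HAND1 (11) and GCM1 (5). The neural ZIC2 was present on 27 arrays and PAX6 on 2, and the mesoderm marker MIXL1 on 5. Markers of other cell types also differed among lines. Of 5 endoderm markers 4 were called. Of these, GATA6, SOX17 and FOXA2 were highest in line 2406, and AFP was highest in 906 (10.12, against 9.70 in 2406). GATA4, not called, was highest in 206. The summed endoderm signal averaged 4730 in 2406, with 7783 on 2406e, and between 1455 and 3072 in the other lines. Of 5 trophoblast markers tested 2 were called, GATA3, highest in 2906, and KRT8, lowest there. The part of these cell types in the levels of 2406 and 2906 described below was not tested.

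The first comparison asked which translation genes differed among the 10 lines. Of 67 genes, 12 differed at an adjusted p under 0.05 in limma's F test: the initiation genes EIF1B, EIF2AK3, EIF3L, EIF4E, EIF4G1, EIF5A and EIF5B, the elongation factor methyltransferases EEF1AKMT1 and EEF1AKMT2, and the synthetases GARS1, LARS1 and AARS2. These 12 genes are 17.9% of the set, and 16.6% of all probe sets tested and 17.4% of all genes tested passed the same test, so the share called was near the background, and EIF5A is counted among the 12 although it was chosen for its range. At an unadjusted p under 0.05 the set held 28 of 67 genes, beside 3875 of all 11299 genes tested. The median range of line means was 0.75 log2 units over the 67 genes and 0.86 over all genes tested, and a median 34.3% of the variance lay between lines, against 25.4% for all genes.

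The 12 genes were called by a test that included the single array of line 2906, so their extremes there are a description. No share over all called genes stands beside them. That array was an extreme in all 12 called genes. It was lowest in 8, EIF2AK3, LARS1, EIF3L, EIF5A, EEF1AKMT2, EIF1B, GARS1 and EEF1AKMT1, and highest in 4, EIF4G1, EIF5B, EIF4E and AARS2. Across all 67 genes it was the highest or lowest line in 40 (59.7%), against 48.4% of all genes tested. Without line 2906, 5 of the 67 genes were called, beside 13.3% of all genes: EIF2AK3, EIF4G1, EIF5A and EEF1AKMT2 from the 12, and EIF4E3 (adjusted p = 0.0481). Without the 6 arrays of high GAPDH ratio, 2 were called, EIF4G1 (adjusted p = 0.00992) and EEF1AKMT1 (adjusted p = 0.0163), beside 8.23% of all genes. Under median centring of the arrays 5 were called, beside 1120 of 11299 genes. LARS1, EEF1AKMT2, GARS1, EEF1AKMT1, EIF5B, EIF4E and AARS2 were not called under it (adjusted p from 0.0530 to 0.279).

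**Figure D1:**
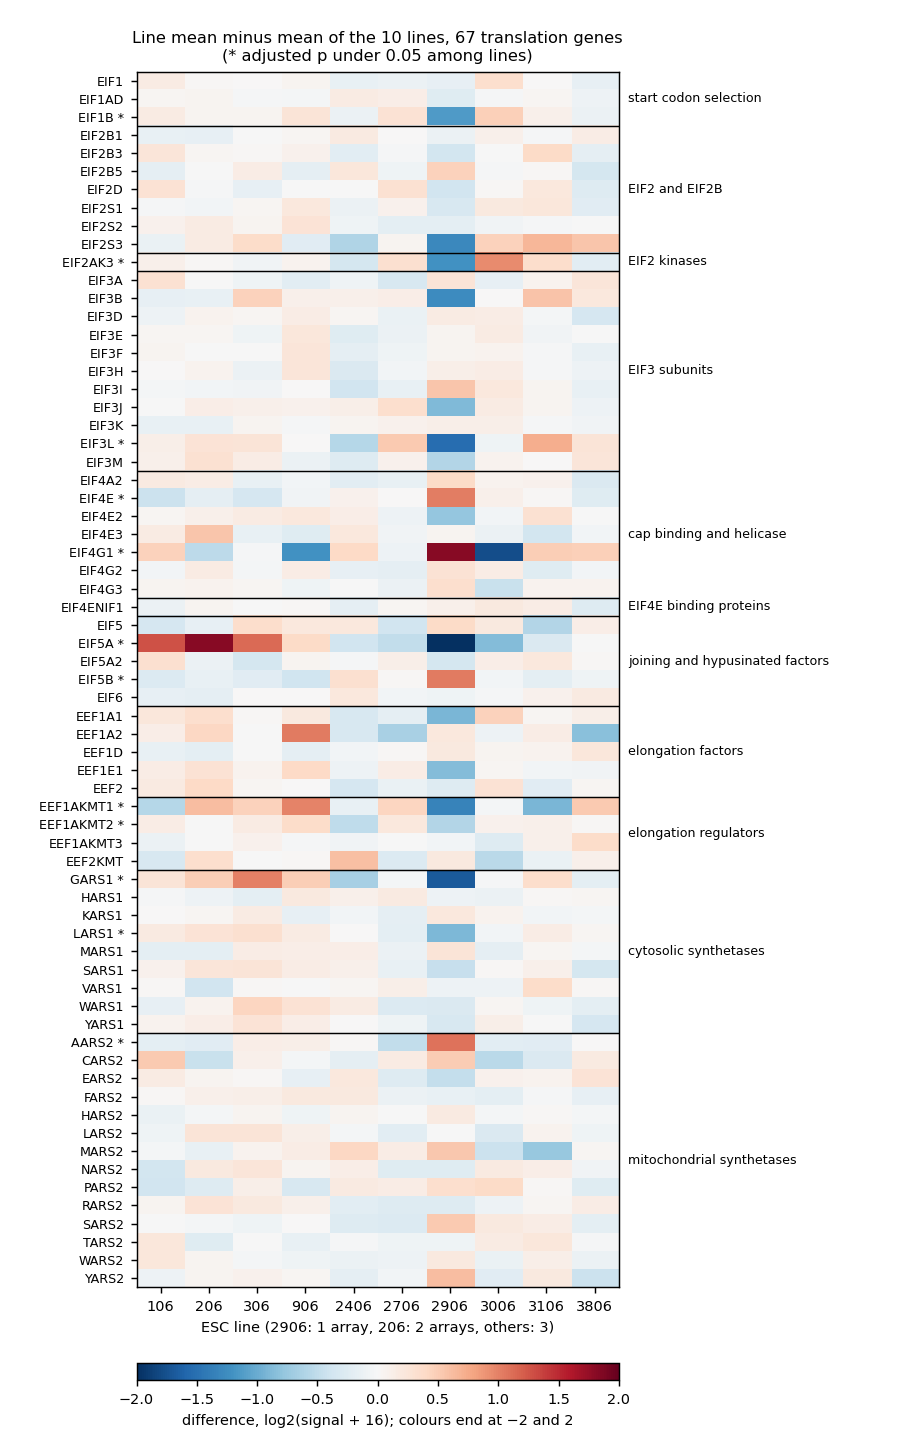
Each row is 1 of the 67 genes, grouped by role, and each column is 1 of the 10 lines; the colour gives the line mean minus the mean of the 10 lines in log2(signal + 16) units, with colours ending at -2 and 2, and an asterisk marks the 12 genes called among lines. The strongest colours lie in the column of line 2906, which is 1 array, and in the rows of EIF5A and EIF4G1.

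Among the start codon factors, EIF1 keeps the scanning ribosome from starting at wrong codons and EIF1B is its close paralogue. EIF1B averaged 12.55 ± 0.13 in line 3006 (n = 3 arrays), the highest line, and 11.95 ± 0.32 in 2406 and 11.95 ± 0.15 in 3806 (n = 3 each), against 10.94 on the array of 2906 (adjusted p = 0.0109). Without 2906 the remaining lines spanned 0.60 log2 units and the call was lost (adjusted p = 0.211). EIF1 ranged over 0.49 log2 units (adjusted p = 0.789) and EIF1AD over 0.40 (adjusted p = 0.836), and neither was called.

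None of the 7 genes of EIF2, its exchange factor and EIF2D was called by its brightest probe set. EIF2S3, the X-linked gamma subunit that holds the initiator tRNA, had the widest range of these, from 9.15 in 2906 to 11.10 ± 0.28 in 3106 (adjusted p = 0.128). EIF2S1, the alpha subunit that the stress kinases phosphorylate, ranged over 0.53 log2 units by its brightest probe set (adjusted p = 0.274). A second EIF2S1 probe set, named after its values were seen, had its lowest line means in 906 and 306 (adjusted p = 0.000258). Its 906 arrays read 8.26, 9.03 and 8.30 and its 306 arrays 8.75, 8.79 and 8.94, whereas the 2706 arrays read 9.92, 10.68 and 10.46 and the 3106 arrays 10.41, 10.20 and 10.30. On this probe set 2906 read 9.89, within the range of the other lines, and 106d read 8.96, below 906c. The other 2 probe sets of EIF2S1 were called as well (adjusted p = 0.0262 and 0.0438), with different lines highest and lowest.

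EIF2AK3 (PERK), the endoplasmic reticulum stress kinase that phosphorylates EIF2, had the lowest p of the set. Line 3006 read 9.89, 10.01 and 10.03 on its 3 arrays, above every array of the other lines, of which the next highest were 2706a at 9.53, 3106a at 9.52 and 906c at 9.51. Line 2406 read 8.96, 8.55 and 8.52, line 3806 read 8.70, 8.97 and 8.78, and 2906 read 7.81. The adjusted p was 0.000356 over all lines, 0.00227 without 2906 and 0.0157 without 3006. Lines accounted for 82.7% of its variance. Without the 6 arrays of high GAPDH ratio, which removes 2 of the 3 arrays of 3006, it was 0.112. EIF2AK3 was the only EIF2 kinase among the 67 genes.

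EIF3 is the large scaffold that joins the small subunit to the mRNA, and 1 of its 11 measured subunits was called. EIF3L averaged 13.28 ± 0.35 in 3106 and 13.09 ± 0.30 in 2706 (n = 3 each), and 11.04 in 2906 (adjusted p = 0.00629). The arrays of line 2406 read 12.66, 11.93 and 11.36, the last below all arrays but 2906d. Without 2906 the adjusted p was 0.0547. The other 10 subunits ranged from 0.26 log2 units (EIF3K, adjusted p = 0.959) to 1.83 (EIF3B, 9.50 ± 0.45 in 3106 against 7.67 in 2906, adjusted p = 0.114).

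Of 7 cap-binding and helicase genes, 2 were called, both with their highest value in 2906. EIF4G1 is the scaffold that bridges the cap-binding protein and the helicase. It read 7.69, 5.69 and 7.12 on the arrays of 3006 and 7.38, 7.63 and 7.19 on those of 906. In 106 it read 9.95, 8.15 and 9.09, in 3106 9.18, 9.84 and 8.29, in 3806 8.64, 9.18 and 9.43, and in 2906 10.43. Line 206 read 8.88 on 206a and 7.29 on 206c, where EIF4G1 was called absent. On the arrays of highest median signal, EIF4G1 stood at -1.37 log2 units from its line mates on 106c and -1.59 on 206c. It stood at -0.05 on 306c and 0.35 on 906c.

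Every array of 3006 and 906 lay below every array of 2406, 306 and 3806, and all 3 arrays of 3006 and 2 of 3 in 906 were called absent for EIF4G1, so those levels are near background and the differences are limited by it. The adjusted p was 0.00627, and it stayed between 0.000245 and 0.0356 in all 49 alternative fits. EIF4G1 rests on 1 probe set, of a type whose probes can match several transcripts. The related EIF4G2 and EIF4G3, each with several probe sets, ranged over 0.53 and 0.78 log2 units by their brightest (adjusted p = 0.422 and 0.336).

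EIF4E, which binds the mRNA cap, averaged between 8.20 ± 0.29 in 106 and 8.73 ± 0.18 in 3006 (n = 3 each) in 9 lines and read 9.65 in 2906 (adjusted p = 0.0329, or 0.296 without 2906, 0.0580 without 3806 and 0.0532 without 3006). EIF4E3, a minor cap-binding paralogue, ran from 8.51 in 206 to 7.60 in 3106 (adjusted p = 0.0515). EIF4ENIF1, which carries EIF4E into the nucleus, had line means from 9.60 in 3806 to 10.05 in 3006 (adjusted p = 0.234).

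Of 5 joining and hypusinated factors, EIF5A and EIF5B were called. EIF5B, the GTPase that joins the ribosomal subunits, read 13.90 in 2906 and averaged 13.17 ± 0.48 in 2406 and 12.45 ± 0.08 in 906 (adjusted p = 0.0307, or 0.261 without 2906 and 0.0792 without 906). Within 2406 its arrays a, d and e read 12.62, 13.41 and 13.48. EIF6, which keeps the large subunit from joining early, ranged over 0.40 log2 units (adjusted p = 0.880) and EIF5, which triggers GTP hydrolysis on EIF2, over 0.97 (adjusted p = 0.253).

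EIF5A had the widest range of the set, 4.40 log2 units, on its only probe set. The triplet lines were highest, with 9.92, 10.43 and 9.18 on the arrays of 106, 9.61 and 11.18 on those of 206, and 8.87, 9.0 and 11.24 on those of 306. Line 906 read 8.45, 9.86 and 8.56, line 3806 read 8.19, 8.91 and 8.57, and line 2406 read 9.35, 7.72 and 7.50. The quadruplet lines read 8.13, 7.97 and 8.11 in 2706, 8.34, 8.11 and 8.40 in 3106, 8.0, 8.01 and 7.11 in 3006, and 5.99 in 2906.

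Every triplet array lay above every quadruplet array. By line mean the order was 206 (10.39 ± 1.11, n = 2), 106 (9.84 ± 0.63), 306 (9.70 ± 1.33), 906 (8.96 ± 0.78), 3806 (8.56 ± 0.36), 3106 (8.28 ± 0.15), 2406 (8.19 ± 1.01), 2706 (8.07 ± 0.09), 3006 (7.71 ± 0.52, n = 3 in each line from 106 on) and 2906. Neighbours in that order down to 3006 differed by less than the SD of at least 1 of the pair. All 8 triplet arrays were called present, and 4 of the 10 quadruplet arrays, so the low end of the range is background. The F test gave an adjusted p of 0.00748, or 0.0263 without 2906, which describes the range it was chosen for.

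The arrays of highest median signal carried part of that range. EIF5A read higher on each of the 4 than on its line mates, by 0.88 log2 units for 106c, 1.58 for 206c, 2.31 for 306c and 1.35 for 906c. Without these 4 arrays the line means were 9.55 in 106, 9.61 in 206, 8.93 in 306 and 8.51 in 906, and still ran down to 7.71 in 3006 and 5.99 in 2906. The summed signal of the 7 fibroblast and matrix markers on the array averaged 9918 in 106, 9497 in 206, 10539 in 306 and 7833 in 906, and between 5222 (2906) and 6788 (3106) in the other lines. Of that list, COL1A2, THY1 and FBN1 were present on all arrays and none of the 7 on 0 arrays. The markers did not follow a common order. COL1A2 had its 4 highest line means in 306 (12.25), 106 (11.79), 206 (11.70) and 906 (11.22), whereas FBN1 was highest in 2906 (11.23) and lowest in 906 (10.11), DCN was highest in 2706 and LUM in 3806. The part of array brightness or of fibroblast RNA in the EIF5A levels was not tested, and in RNA from whole colonies more cells of a type and more RNA per cell cannot be told apart.

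**Figure D2:**
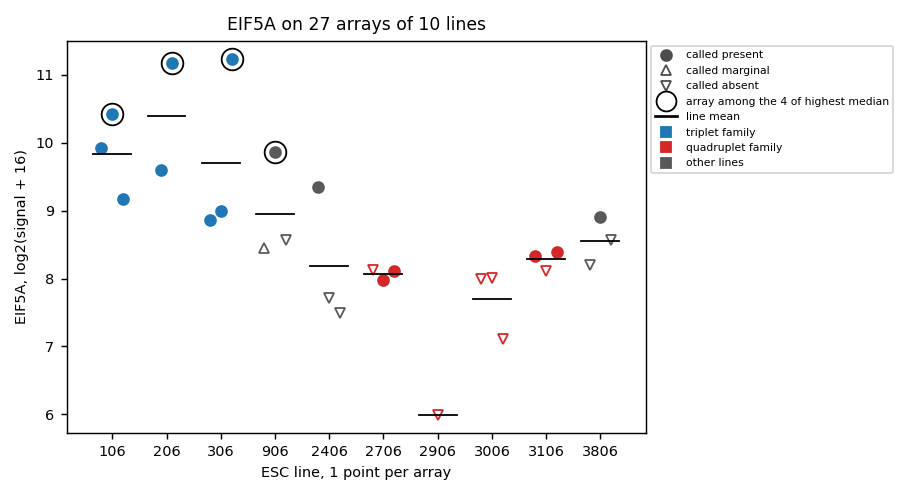
Each symbol is EIF5A on 1 of 27 arrays in log2(signal + 16), by line, with filled circles where it was called present, open upward triangles marginal and open downward triangles absent; bars are line means and rings mark the 4 arrays of highest median signal. The 8 triplet arrays lie between 8.87 and 11.24 and the 10 quadruplet arrays between 5.99 and 8.40.

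EIF5A2, the paralogue of EIF5A, did not follow it: its brightest probe set ranged over 0.68 log2 units (adjusted p = 0.490). Another of its probe sets, present on all arrays, was called with its highest level in 3006 (8.45, against 7.19 in 906, adjusted p = 0.00973), as was a dimmer one present on 6 arrays (adjusted p = 0.00159). DHPS and DOHH, the enzymes that make hypusine on EIF5A, were not called (adjusted p = 0.266 and 0.611). Over the 10 line means, the genes most like EIF5A by Pearson correlation were KRTAP13-4 (r = 0.973, and 0.963 over 9 lines without 2906), ARNTL (0.968 and 0.940), CARD8 (0.959 and 0.919), TMCO6 (0.954 and 0.903) and MAPRE2 (0.952 and 0.942). KRTAP13-4 was called present on 0 arrays, CARD8 on 11 and ARNTL on 22. Among translation genes the most like were LARS1 (0.898, or 0.824 without 2906), GARS1 (0.838 and 0.632), RARS2 (0.813 and 0.769), EEF1E1 (0.802 and 0.511) and EIF3M (0.775 and 0.488). The line means share arrays, and the correlations are descriptions.

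Of 5 genes grouped as elongation factors by symbol, 0 were called in the comparison of lines. The 5 include EEF1E1, a member of the multisynthetase complex. EEF1A2, the muscle and neuronal form of the factor that delivers aminoacyl-tRNA, had the widest range, from 6.50 ± 1.24 in 3806 to 8.36 ± 0.54 in 906 (adjusted p = 0.173, or 0.00207 with the array letter as a block). EEF1A1, the common form, has 4 probe sets placed along the transcript as array controls. Its brightest, from the middle, read 14.33 in 2906 and between 14.92 and 15.70 in the other lines (adjusted p = 0.144). On the 3' probe set 2906 read 15.25, among the higher lines. The ratio of 3' to 5' EEF1A1 signal was 1.66 on 2906d, with a median of 0.90 and a minimum of 0.84 over the arrays. EEF2, the translocase, ranged over 0.74 log2 units (adjusted p = 0.453).

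Of 4 methyltransferases of elongation factors, 2 were called. EEF1AKMT1, which methylates a lysine of EEF1A, read 13.34, 12.95 and 13.32 in 906, and 11.86, 11.09 and 10.98 in 3106. In 106 it read 12.26 and 12.66 on arrays a and d but 10.02 on c, which is the array of highest median and of a GAPDH ratio of 4.61. Its adjusted p was 0.0279, and it was 0.0955 without 906, 0.0877 without 3106, 0.0526 without 2906 and 0.0517 without 3806. When arrays of high GAPDH ratio were left out it was 0.0163, and under median centring of the arrays 0.132. EEF1AKMT2, a methyltransferase for another lysine, was lowest in 2906 (10.66) and 2406 (10.96, 10.61 and 10.66), while every array of the other 8 lines lay at 11.11 or above. The adjusted p was 0.00855, or 0.118 without 2406, 0.0212 without 2906 and 0.279 with median centring. EEF2KMT, which methylates EEF2, ran from 9.77 in 2406 to 8.64 in 3006 (adjusted p = 0.0599), and EEF1AKMT3 from 9.37 in 3806 to 8.74 in 3006 (adjusted p = 0.286).

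**Figure D3:**
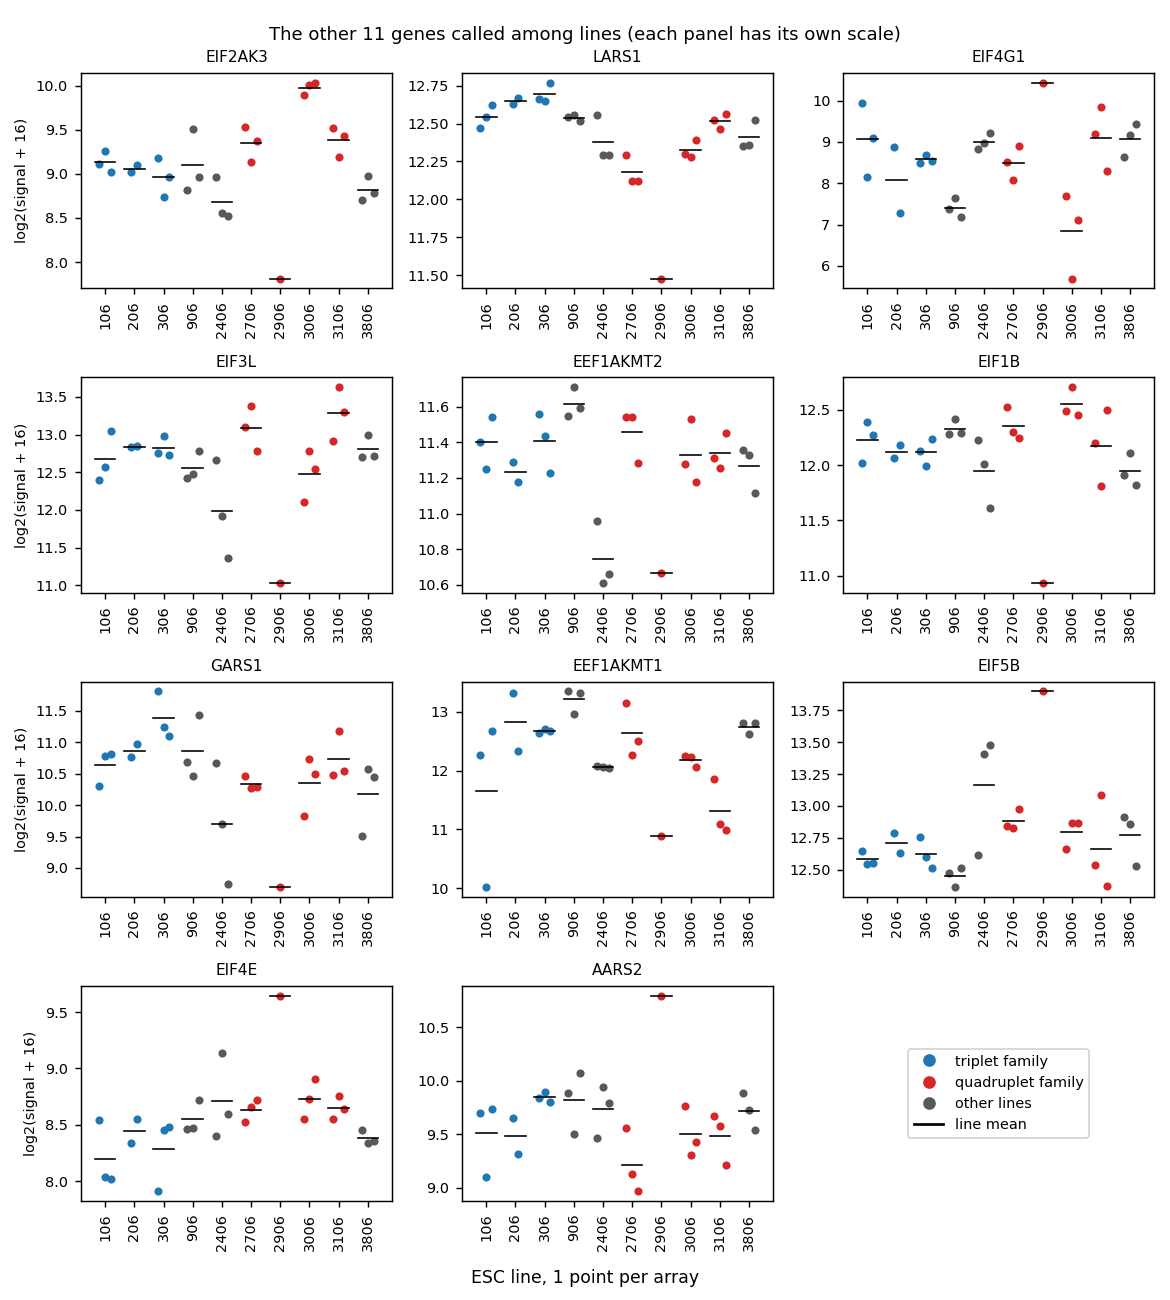
The 11 called genes other than EIF5A, with 1 point for each of 27 arrays in log2(signal + 16), bars for line means, and a separate scale in each panel; blue marks the triplet family, red the quadruplet family and grey the other lines. Line 2906 has 1 point, which is the lowest line in 7 panels and the highest in 4, and the 3 points of 3006 lie above all others for EIF2AK3.

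Of 9 cytosolic synthetases, GARS1 and LARS1 were called. GARS1, the glycyl-tRNA synthetase of both cytosol and mitochondria, read 11.80, 11.24 and 11.10 in 306, and 8.70 in 2906. In 2406 it read 10.66, 9.70 and 8.74, the last close to 2906. The adjusted p was 0.0236, or 0.0982 without 2906 and 0.0809 without 306. LARS1, the leucyl-tRNA synthetase, varied little within lines (within-line SD 0.083). It averaged 12.69 ± 0.07 in 306 and 12.65 ± 0.03 in 206 (n = 3 and 2), and 12.18 ± 0.10 in 2706 (n = 3), against 11.48 in 2906. The adjusted p was 0.00299, or 0.0884 without 2906. A second LARS1 probe set on all arrays did not share the low value of 2906, with a line mean 0.08 log2 units below the mean of the others (adjusted p = 0.130), and on another 2906 was the highest line (10.49, adjusted p = 0.381).

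ATF4 induces a subset of the cytosolic synthetases under stress. Of the 6 such genes tested, GARS1 and LARS1 were called, and WARS1, MARS1, SARS1 and YARS1 were not (adjusted p from 0.0677 to 0.768). Of the other 3 cytosolic synthetases, HARS1, KARS1 and VARS1, 0 were called. Of the 4 members of the multisynthetase complex tested, LARS1 was called and EEF1E1, KARS1 and MARS1 were not. KARS1 (lysyl, both compartments) and HARS2 (mitochondrial histidyl) had with EIF4ENIF1 the 3 smallest sums of the SD over line means and the within-line SD among genes present on all arrays. Their line means averaged 13.45 ± 0.13 and 10.44 ± 0.08 (SD over 10 lines).

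Of 14 mitochondrial synthetases, only AARS2, the alanyl enzyme, was called. It read 10.80 in 2906 and averaged 9.22 ± 0.30 in 2706 and 9.85 ± 0.05 in 306 (n = 3 each, adjusted p = 0.0395, or 0.325 without 2906). The call was also lost without 2706, 306, 3806 or 3006 (adjusted p from 0.0542 to 0.0769). MARS2 had the next widest range, from 9.92 ± 0.23 in 3106 to 11.20 in 2906 (adjusted p = 0.0880). YARS2 and SARS2 were also highest in 2906 (11.17 and 11.32) and were not called (adjusted p = 0.148 and 0.392). The remaining genes of this group ranged over 0.30 (HARS2) to 1.05 (CARS2) log2 units.

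Several genes had probe sets that disagreed on the array of 2906, and for these the choice of probe set decided the call. KARS1 read 13.67 there by its brightest probe set, just above the highest other line at 13.61, but 9.61 and 10.01 by 2 others, where the other lines lay between 10.69 and 11.94 (adjusted p = 0.0252 and 0.00360). EIF3D read 12.90 by its brightest and 9.06 and 8.48 by the others, where the other lines lay between 10.06 and 11.73 (adjusted p = 0.000467 and 0.00417). EIF3I read 14.08, above the highest other line at 13.74, and 11.20 by its second, below the lowest at 12.22 (adjusted p = 0.00202).

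Of 65 further probe sets tested, 20 were called, beside 16.6% of all probe sets tested (5465 of 32862). The share over all probe sets other than the brightest is not given here. The 20 came from 15 genes, and 14 of those genes were not called by their brightest probe set. In 14 of the 20 probe sets 2906 was the highest or lowest line, and its array was part of the test that called them. Over the 32 genes with at least 2 tested probe sets, the gap between probe sets of a gene, each taken as its deviation from the mean of the other lines, had a median of 1.12 log2 units on 2906d. On the other 26 arrays that median lay between 0.28 and 0.69. Over 2 log2 units apart were 5 genes on 2906d (EIF3D, WARS2, RARS2, EIF3I and EIF2S3) and at most 1 on any other array. Over all 4486 genes with at least 2 tested probe sets the median was 0.80 on 2906d and between 0.33 and 0.64 elsewhere. Over 2 log2 units apart were 7.67% of these genes on 2906d and 6.13% on 106c. For the 32 translation genes the shares were 15.6% on 2906d and 3.1% on 106c. The GAPDH ratio of 13.3 stands beside these gaps, and where each probe set lies on its transcript was not used here.

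**Figure D4:**
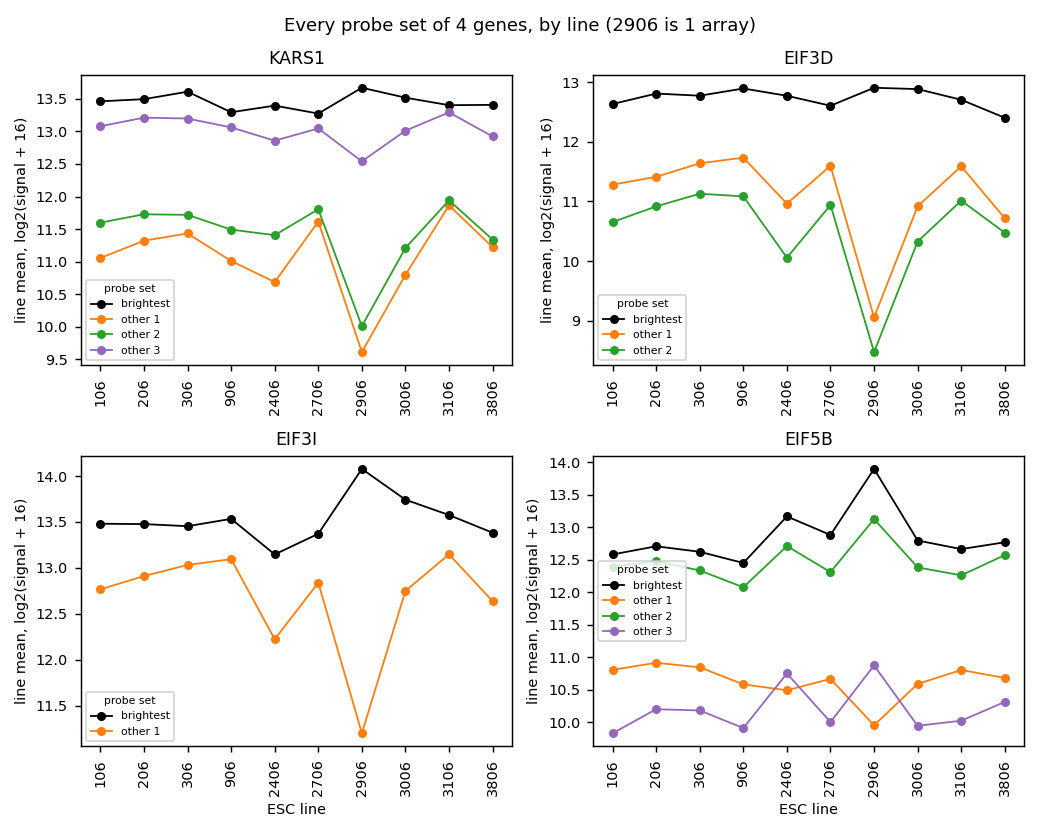
Line means in log2(signal + 16) of every probe set of KARS1, EIF3D, EIF3I and EIF5B across the 10 lines, with the brightest in black. In 2906, which is 1 array, the brightest probe sets of KARS1, EIF3D and EIF3I sit at their highest while the others fall to their lowest, such as 13.67 against 9.61 for KARS1; EIF5B is highest there on 3 probe sets and lowest on 1.

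**Figure D5:**
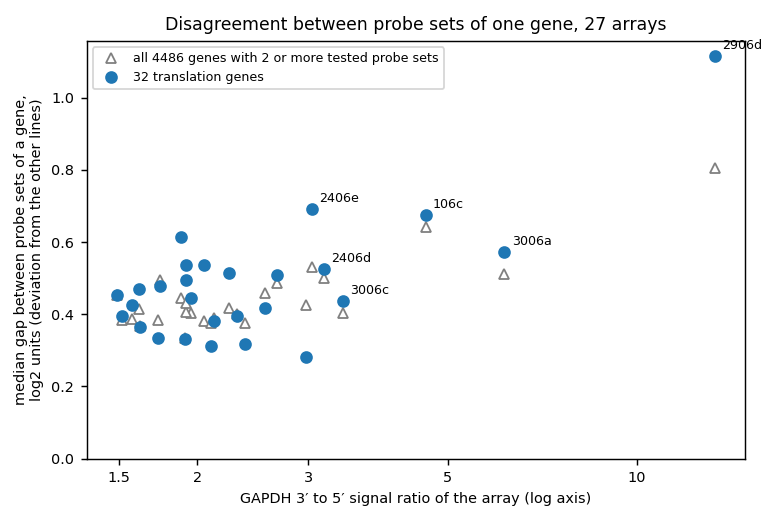
Each array is a filled circle for the median gap between probe sets of a gene over 32 translation genes and an open triangle for 4486 genes, against the GAPDH 3' to 5' ratio on a log axis. Array 2906d lies alone at a ratio of 13.3 with a median gap of 1.12 for the translation genes, and the other arrays lie between 0.28 and 0.69.

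Within line 2406, array a had a GAPDH ratio of 1.52 and its arrays d and e had 3.18 and 3.04. All 12 called genes stood on 2406a, relative to d and e, on the opposite side from 2906d relative to the other lines, and over the 67 genes 20 stood on the same side. Over the 67 genes the correlation of the deviations of 2406a with those of 2906d was r = -0.743, and it was -0.442 over all 11299 genes. For 2406e it was 0.623 over the 67 genes, for 3006a, whose ratio was 6.15, 0.383, and for 106c, whose ratio was 4.61, -0.074. Each array was set against its line mates. Array 3106b had the lowest ratio of all, 1.49, and its mates had 1.61 and 1.75. On it 10 of the 12 called genes stood on the same side as on 2906d (r = 0.298 over the 67). Array 306b, at 1.73 beside mates at 2.05 and 2.57, gave r = 0.339. Array 3006b, at 2.98 beside mates at 6.15 and 3.41, gave -0.567. The 12 genes were called by a test that used these same arrays, so their sign counts are descriptions. No sign count over all genes stands beside them. The r values are correlations across genes within arrays, which are not independent, and the arrays share their line mates. Whether RNA quality had a part in these levels was not tested.

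The second comparison asked whether translation genes differed between the 5 male and 5 female lines, over line means. None of the 67 genes was called in limma, beside 0.00885% of all genes tested (1 of 11299). An unadjusted p under 0.05 was found for 2 of the 67 and for 579 of the 11299. The lowest p-values belonged to EEF1AKMT2, GARS1 and EIF2B3, a subunit of the EIF2 exchange factor. EEF1AKMT2 ranged from 11.34 to 11.62 over male lines and from 10.66 to 11.33 over female lines. The male lines were higher by 0.40 ± 0.16 (SE, adjusted p = 0.774). The lowest male mean, 11.34 in 3106, lay just above the highest female mean, 11.33 in 3006, and arrays of these lines overlapped. No share of all genes with separate groups stands beside this. GARS1 ranged from 10.34 to 11.38 over male and from 8.70 to 10.86 over female lines, a difference of 0.83 ± 0.34 (adjusted p = 0.774) with overlapping groups. EIF2B3 differed by 0.29 ± 0.13 (adjusted p = 0.774).

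The X-linked EIF2S3 is known to escape X inactivation in human cells. It averaged 10.58 ± 0.37 over male and 10.30 ± 0.78 over female lines by its brightest probe set (SD, n = 5 lines each), a male minus female difference of 0.29 ± 0.33 (adjusted p = 0.858). By its other probe sets the difference was -0.25 and -0.39 (adjusted p = 0.774 for both). The brightest reads 9.15 in the female line 2906 and the others read their highest there, and without 2906 the difference by the brightest was 0.00095. No direction by sex is given for EIF2S3. EIF1AX was not analysed here.

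The third comparison set the 4 quadruplet lines against the 3 triplet lines, which share a sire and differ in dam. None of the 67 genes was called, beside 0.0708% of all genes tested (8 of 11299). An unadjusted p under 0.05 was found for 2 of the 67 and for 947 of the 11299. EIF5A had the largest difference, and since it was chosen for its range among lines its values are a description. Its triplet lines averaged 9.98 ± 0.37 (SD, n = 3 lines) and its quadruplet lines 7.51 ± 1.04 (n = 4), a quadruplet minus triplet difference of -2.47. The groups did not overlap, and no share of all genes with separate groups stands beside this. Of the 10 quadruplet arrays 6 were called absent, so the size of the difference is limited by background. The difference was -1.96 without line 2906, -1.85 without the 4 arrays of highest median, of which 3 are triplet and 0 quadruplet arrays, and -1.76 when arrays of high GAPDH ratio were left out.

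EIF4E averaged 8.31 ± 0.12 in the triplet and 8.92 ± 0.49 in the quadruplet lines (difference 0.61 ± 0.26, adjusted p = 0.516). Its groups did not overlap by line mean, again with no share over all genes beside this. The mitochondrial prolyl synthetase PARS2 averaged 8.86 ± 0.26 and 9.26 ± 0.17 (difference 0.40 ± 0.18, adjusted p = 0.535), with overlapping groups.

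Translation genes outside the rule were described by list. Of the cytosolic synthetase subunits and scaffold proteins, 0 of 4 tested were called among lines (FARSA, FARSB, AIMP1 and AIMP2), and likewise 0 of 2 hypusination enzymes, 0 of 2 termination and recycling factors and 0 of 4 poly(A)-binding and re-initiation factors. Of 9 mitochondrial translation factors, 1 was called: MTRF1L, a mitochondrial release factor, which ran from 10.42 ± 0.20 in 906 (n = 3) to 9.30 in 2906 (adjusted p = 0.0412).

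Of 7 stress response genes tested, 1 was called: ASNS, the ATF4-induced asparagine synthetase. It averaged 14.05 ± 0.11 in 906 and 13.84 ± 0.28 in 306, against 13.02 ± 0.17 in 3806 (n = 3 each) and 12.93 in 2906 (adjusted p = 0.0202). ATF4 itself was not called (adjusted p = 0.319), nor were DDIT3 (range 3.13 log2 units, adjusted p = 0.313) and TRIB3 (2.61, adjusted p = 0.146), whose arrays within line 106 had SDs of 1.88 and 1.19. Of 5 genes of the mTOR axis, RPS6KB1, the kinase that promotes translation downstream of mTOR, was called (adjusted p = 0.00838). It averaged 10.51 ± 0.05 in 3806 and 10.43 ± 0.24 in 2406, and 9.60 ± 0.32 in 3106 and 9.61 ± 0.08 in 3006 (n = 3 each).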

How the data were processed

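Total RNA, 300 ng per sample, was labelled as biotinylated cRNA per the labels' protocols. The deposited intensity values, 1 per probe set and array, were made with GCOS per the submitters' processing notes. Neither a version nor settings of GCOS appear there. Leaving out 2% of values at each end, every array averaged between 499.3 and 499.9, so arrays had been scaled to a common mean. The authors' detection calls (present, marginal or absent) and parentage came from 2 other deposited tables, matched by name. After 145 control probe sets without a gene were set aside, 52720 were left, of which 24969 had 1 symbol, 361 several and 27390 none. All 67 genes matched the RefSeq gene table of T2T-MMU8v2.0. A probe set shared by EIF4A2 and another gene was left out.

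Values were analysed as log2(signal + 16), a scale on which differences of dim genes come out too small. Testing required a signal over the array's own median on 3 or more arrays and kept 32862 probe sets, or 11299 genes by brightest probe set. Lines were compared with limma 3.58.1 (R 4.3.3) by an F test on 27 arrays, and sex and family on line means. P-values were adjusted by Benjamini-Hochberg over all probe sets tested, and called below 0.05. Variance was split into parts between and within lines by a one-way random effects model. The fits were tested on simulated data with planted changes. Of changes of 1 log2 unit, 27% were recovered among lines (1 line changed), 59% by sex and 22% by family. Of changes of 2 log2 units, 81%, 94% and 86% were recovered. A gene not called may therefore still differ. The number of arrays limits the precision.

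Genes named were all those called, the widest of each role, the 3 of smallest summed spread between and within lines, the 3 of lowest p by sex and by family with EIF2S3, EIF5A and its nearest patterns, and called genes of the other translation lists. Further probe sets were picked for description with their values in view. The 67 genes and all lists were chosen with earlier results of these data known. Alternatives were other pseudocounts, filters and scalings, the mean over probe sets, blocks, covariates and array weights, and leaving out arrays or lines. Sequences were not used here.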

Additional observations from a re-analysis of the deposited data

Results flagged for a closer look

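Among the members named by sex and family, 11 sets of line means were examined for a line far from the rest, and 1 stood apart. In the quadruplet family EIF4E read 9.65 in line 2906, on 1 array, while the other 3 lines lay between 8.63 and 8.73. Such a rule picks out about 5% of groups by chance. The same array had the highest GAPDH 3' to 5' ratio, 13.3, and the part of RNA quality in its EIF4E level was not tested.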

How the results depend on the processing

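The count of 12 genes called among lines lay between 9 and 18 in 42 of 49 alternative fits. It was 19 of 64 tested with the 75th percentile filter and 36 with array weights. It was 5 with each array centred on its median (EIF2AK3, EIF4G1, EIF3L, EIF5A and EIF1B) and 2 when high-GAPDH-ratio arrays were left out. The count over all genes moved with these settings too, from 1966 of 11299 in the main fit. It was 2248 of 7428 with the 75th percentile filter and 5131 of 11299 with array weights. With median centring it was 1120, and 930 when high-GAPDH-ratio arrays were left out. Leaving out each line gave 5 (without 2906) to 16 (without 106), and leaving out each array gave 5 (without 2906d) to 20 (without 106c). Of all 11299 genes, 1498 were called without 2906, 2419 without line 106 and 2661 without array 106c. With the array letter as a replicate block 10 were called, beside 1438 of 11299 genes. Of the 10, 9 were among the 12 and the other was EEF1A2, and EEF1AKMT2, EIF5B and EIF4E were lost. The labels do not say that a letter marks a shared culture or day. Without the filter 9 were called, beside 1354 of 14133 genes. The median share of variance between lines, 34.3%, was 21.6% with median centring and 46.1% without the 4 arrays of highest median. It was 24.8% to 43.6% without a line and 24.8% to 44.5% without an array (29.8% without 3006b, 30.5% without 3806b). Over all 11299 genes the median share moved too. It was 25.4% in the main fit, 17.8% with median centring, 34.6% without the 4 arrays of highest median and 20.7% without 2906. By sex, 0 of 67 genes were called in all 22 alternatives. The EIF2S3 sex difference changed sign to -0.12 with the mean over its probe sets and to -0.29 when high-GAPDH-ratio arrays were left out. By family, 1 gene, EIF5A, was called with the line as a random block and 0 to 1 were called when a line was left out (1 without 2906), and EIF5A was chosen for its range among lines. EIF4G1 was called in all 49 alternatives, and AARS2, the least steady of the 12, in 28. The cause of these changes was not tested. Detection limits EIF5A, EIF4G1, EIF4E and WARS2, which were called present on 12 to 21 arrays, and line 2906 has no replicate.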
